A study of Mus musculus with 2 samples.

Results

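Intergenic long noncoding RNA genes (lincRNA genes) were described in total RNA of adult mouse liver. They are the genes with a row in both gene tables whose class in the GENCODE M21 annotation is lincRNA, leaving out Malat1, Neat1, H19, Meg3, Gas5 and every symbol that starts with Snhg. The rule gave 2769 genes of 43346 mouse Ensembl gene identifiers in the tables, after 8 genes of the class were left out by name. The whole class held 2777 genes, beside 21474 protein-coding genes.

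The series has 1 group of 2 libraries, replicates 1 and 2, made from liver of C57BL/6J mice, adult and aged 8 weeks, with no treatment or altered allele named. RNA longer than 200 nucleotides was sequenced as total RNA with added spike-in RNAs. The labels name the replicates as separate biosamples under a single donor identifier and give no sex, so the spread between them may be technical in part. Gene quantities sum to 83816487 and 71068191 endogenous expected counts, which are estimated fragments per gene. With 1 group and no other tissue, no contrast between conditions and no liver enrichment can be measured.

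A lincRNA gene is transcribed into a spliced or unspliced RNA without a recognised protein and is classed as intergenic in the annotation, although some overlap a coding gene. Such RNAs are known to be mostly scarce and restricted to few tissues, and many start beside the promoter of a coding gene and run away from it. A few are abundant and well understood, such as Xist, the RNA that coats and silences an X chromosome. In liver, some act in lipid handling, and C730036E19Rik, which RefSeq lists under the synonym lncLSTR, is known as a liver RNA that affects clearance of blood triglycerides.

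The promoters of the genes that the later results return to are shown first, from the RefSeq promoter windows of build GRCm38.p6, each 250 bases before to 50 bases after the start and read on the gene's own strand. 1810008I18Rik (chr7:65802787-65803086, plus strand) is the highest liver-associated member and C730036E19Rik (chr1:151137784-151138083, plus strand) the member that differed most between libraries at a mean count of 100 or more. 9030616G12Rik (chr10:128970947-128971246, plus strand) lies beside the abundant coding gene Mettl7b. Gm17586 (chr11:120633500-120633799, plus strand) starts back to back with the coding gene Mafg, whose RefSeq start lies on the minus strand 203 bases before it, so that this window holds both start sites. Capitals mark matches to the motifs searched.
1810008I18Rik: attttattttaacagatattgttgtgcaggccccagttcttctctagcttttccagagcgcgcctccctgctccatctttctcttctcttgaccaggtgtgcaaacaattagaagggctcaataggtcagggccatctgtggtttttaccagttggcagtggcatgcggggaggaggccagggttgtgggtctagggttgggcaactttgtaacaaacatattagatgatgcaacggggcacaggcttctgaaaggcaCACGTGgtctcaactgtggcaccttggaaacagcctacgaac
C730036E19Rik: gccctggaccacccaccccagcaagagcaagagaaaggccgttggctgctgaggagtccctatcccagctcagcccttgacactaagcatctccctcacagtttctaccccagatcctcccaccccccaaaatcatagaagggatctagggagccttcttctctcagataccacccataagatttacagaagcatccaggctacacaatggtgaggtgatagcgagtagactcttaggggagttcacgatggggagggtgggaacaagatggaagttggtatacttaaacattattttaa
9030616G12Rik: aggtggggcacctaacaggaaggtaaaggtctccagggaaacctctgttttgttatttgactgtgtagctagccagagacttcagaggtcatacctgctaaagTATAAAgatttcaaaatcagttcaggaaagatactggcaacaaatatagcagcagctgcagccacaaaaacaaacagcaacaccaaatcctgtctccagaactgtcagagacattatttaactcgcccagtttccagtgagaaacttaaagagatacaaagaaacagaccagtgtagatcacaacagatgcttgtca
Gm17586: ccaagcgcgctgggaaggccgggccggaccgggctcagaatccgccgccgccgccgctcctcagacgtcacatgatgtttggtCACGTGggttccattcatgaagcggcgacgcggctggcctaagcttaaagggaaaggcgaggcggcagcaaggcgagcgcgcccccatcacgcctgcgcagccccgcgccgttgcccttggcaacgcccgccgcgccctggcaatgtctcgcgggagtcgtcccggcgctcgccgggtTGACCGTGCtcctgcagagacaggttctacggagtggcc
The search covered both strands for 9 motifs, which did not overlap each other in these windows. TATAAA occurred once, 147 to 142 bases before the start of 9030616G12Rik, and is held by 13.6% of the 32851 RefSeq windows. CACGTG (E-box) occurred in 1810008I18Rik from 9 to 14 bases after the start and in Gm17586 from 167 to 162 bases before it, and is held by 7.15% of windows. TGACNNNGC (antioxidant-type element) occurred in Gm17586 and is held by 12.4%. There was no match in the 4 windows shown to CCAAT (held by 37.4% of all windows), TTGCGCAA (C/EBP-type palindrome, 0.183%), CAAAGTCCA (HNF4-type site, 0.475%), GTTAATNAT (HNF1-type site, 0.801%), TCACCCCAC (sterol-type element, 0.551%) or GAAANNGAA (interferon-type element, 8.56%). The 4 starts lay 74, 0, 0 and 18 bases from the start of the transcript with the most counts.

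A further sequence belongs to one of the genes with the highest values. Gm10076 (chromosome 14, 105681828 to 105682211, plus strand), which RefSeq classes as a pseudogene, matched Rpl41, the gene of a very short ribosomal protein, at 99.5% identity over 383 of its 384 nucleotides. The reading frame of Rpl41 occurs in its transcript with 0 mismatches, from nucleotide 42 to 119, start and stop codon in capitals.
Gm10076: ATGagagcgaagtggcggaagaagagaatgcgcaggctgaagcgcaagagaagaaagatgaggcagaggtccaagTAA
Its posterior SD, the quantifier's own uncertainty, was at most 0.127% of the count.

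Few lincRNA genes were measured in liver, and most of their counts came from a handful of genes. The first of these, Gm26917, lies next to a pseudogene related to ribosomal RNA, as given below. Of the 2769, 2170 had 0 counts in both libraries and 395 were above 0 in both. A count of 0 allows up to 3 counts, 0.0358 and 0.0422 CPM (counts scaled to the library total) in replicates 1 and 2, so low expression was not detectable there. With 10 expected counts or more in both libraries, 181 lincRNA genes (6.54%) were measurable, against 13121 protein-coding genes (61.1%). At 100 counts or more 63 remained and at 1000 or more 15, against 10699 and 5333 coding genes. The deposited gene length of replicate 1, which averages over a gene's transcripts, had a median of 1618 nucleotides in the 181 measurable genes. In the other 2588 it was 852. The median number of annotated transcripts was 2 against 1, and that of separate exons was 3 in both sets. Single-exon genes made up 17.7% of the measurable and 5.53% of the others.

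**Figure D1:**
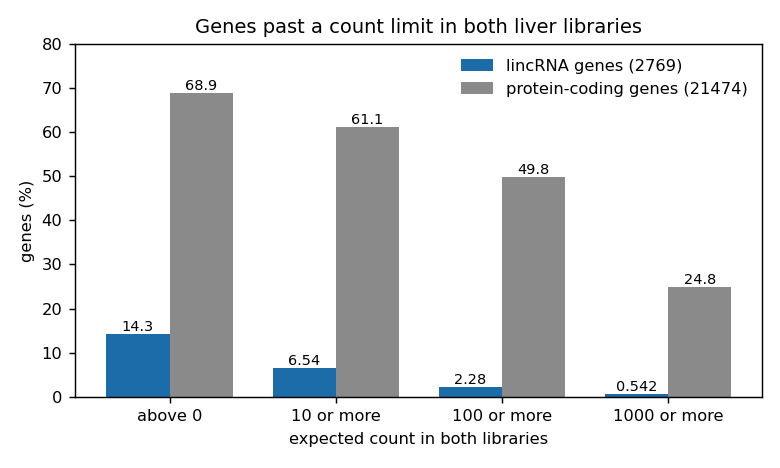
Share of lincRNA genes (2769) and protein-coding genes (21474) past each limit on the expected count in both libraries, in percent. At 10 counts the bars stand at 6.54% and 61.1%.

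Levels per length are given as endogenous TPM, that is, TPM rescaled to 1 total over mouse Ensembl gene identifiers. Spike-ins and rows with other identifiers are left out. The median of the measurable lincRNA genes was 0.221 TPM, with quartiles of 0.0803 and 0.587, against 1.30 TPM for measurable coding genes. In replicate 1 the median of the measurable lincRNA genes was 0.181 TPM and in replicate 2 0.251, and that of the coding genes moved the same way, from 1.04 to 1.55. At 1 TPM or more in both libraries were 32 lincRNA genes and 6664 coding genes, and at 10 TPM or more 6 lincRNA genes and 1327 coding genes. Structural RNAs hold most of the TPM total in these tables, and coding genes held 12.2% and 16.4% of it. Over the coding and lincRNA genes only, the same limit of 1 TPM was passed by 104 lincRNA genes.

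All lincRNA genes together took 0.405% of endogenous counts in replicate 1 (95% Wilson interval 0.404 to 0.407) and 0.496% in replicate 2 (0.495 to 0.498), where intervals cover counting error only. The difference exceeded counting error, and the mean was 0.451% ± 0.0643 (SD, n = 2). Gm26917 alone held 53.3% (53.1 to 53.4) and 61.1% (60.9 to 61.3) of these counts. With Xist it held 77.1% and 81.6%, and the 10 genes with the most counts held 91.2% and 92.4%. In protein-coding genes the 10 highest held 18.8% and 20.4%. Without Gm26917 the mean lincRNA share was 0.191% of endogenous counts. That share was nearly the same in both libraries, so most of the difference between them lay in this gene.

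Several of the highest values come with a limit from position, sequence or other annotation. Gm26917, to which no RefSeq entry was matched, lies at chromosome 17, 39843013 to 39846341, plus strand, and had 180975 and 215521 counts, or 256 and 475 TPM, in replicates 1 and 2. Gm42418 lies 616 nucleotides farther on the same strand and had 20043 and 14307 counts, or 39.3 and 43.6 TPM. RefSeq overlaps it with Rn18s-rs5 (chromosome 17, 39846354 to 39848202), a pseudogene related to the small-subunit ribosomal RNA, and with AY036118 (39848112 to 39898385), which it classes as lncRNA. Gm26917 ends just before that pseudogene, at 39846341 against 39846354. Whether counts of Gm26917 or Gm42418 come from ribosomal RNA was not tested. The log2 ratios of replicate 2 over replicate 1, in TMM-scaled CPM, were 0.34 for Gm26917 and -0.40 for Gm42418, beside a median of -0.01 over all genes. In TPM, where that median was 0.54, the log2 ratio of Gm42418 was 0.15.

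Gm10076 had 4741 and 3515 counts, or 86.9 and 95.5 TPM, from an effective length of 173 nucleotides in replicate 1. Its level is uncertain because a length so near the fragment size inflates TPM and because of its match to Rpl41. Gm42743 had 232 and 244 counts, or 3.45 and 4.91 TPM. In M21 the transcript with 96.2% and 94.1% of its abundance belongs to the histone gene Hist2h2bb, which is protein-coding. Without Gm26917, Gm42418, Gm10076 and Gm42743, an alternative chosen after the values were seen, the lincRNA share was 0.164% of endogenous counts.

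RefSeq matched 126 of the 181 measurable genes by symbol or synonym and position. It classed 113 of them as lncRNA, 9 as protein-coding and 4 as pseudogenes. The protein-coding entries include Tmem250-ps, at 3.07 and 5.47 TPM, and 1810058I24Rik, at 2.47 and 4.07 TPM. A stretch of 100 nucleotides or more at 95% identity or more to a coding transcript was found in 20.8% of all lincRNA genes. In 1.95% it covered over 80% of a transcript. Of the 181 measurable genes, 37 (20.4%) had such a stretch, and in 3 (1.66%) it covered over 80% of a transcript. Counts that reads of a copy could reach are therefore uncertain for those genes, although 173 of the 181 had a posterior SD of 0. A posterior SD over 10% of the count or an effective length under 200 nucleotides marked 9 measurable genes.

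After Gm26917, Gm10076 and Gm42418, 1810008I18Rik had the highest mean level, although AW112010 was above it in replicate 1. It lies at chromosome 7, 65803111 to 65806449, plus strand, and had 5134 and 5194 counts, or 22 and 34.2 TPM. Its shorter transcript, spliced and 819 nucleotides long, made up 91.7% and 91.4% of its abundance. The coding genes on either side, on the same strand, were lower. Pcsk6, a proprotein convertase 55.3 kb downstream, had 5.49 and 6.93 TPM, and Tm2d3, 101 kb upstream, had 11.1 and 16.7 TPM.

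AW112010, an RNA known to rise in immune cells under inflammatory stimuli, had 4737 and 2873 counts, or 26.9 and 25.1 TPM. Xist had 81154 and 72264 counts, or 18 and 23.0 TPM over a long transcript. Its partners in the X-inactivation centre were far lower, with Jpx at 0.933 and 1.36 TPM and Ftx at 0.482 and 0.693 TPM. The 3 genes kept nearly the same counts in both libraries, with 369 and 347 for Jpx, 466 and 430 for Ftx and a log2 ratio of -0.08 for Xist.

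2900097C17Rik, listed by RefSeq as Norad, an RNA that binds Pumilio proteins and protects genome stability, had 2006 and 2240 counts, or 6.79 and 11.8 TPM. The files' model of it is 1149 nucleotides long against 4915 in M21, so its TPM rests on a partial model. 6720427I07Rik is likewise counted over 2300 of 5598 nucleotides. Over all measurable genes, the transcript with the most counts in replicate 1 changed length by more than 1.5 times between these annotations in 7.

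Lncpint, a p53-responsive RNA, had 865 and 1238 counts, or 4.67 and 9.26 TPM. 1700020I14Rik, listed by RefSeq as Oip5os1 and known as the conserved RNA Cyrano, had 7283 and 6104 counts, or 3.57 and 4.78 TPM. Gm8883 had 860 and 491 counts, or 8.25 and 7.57 TPM. The remaining members among the 20 highest, 2310001H17Rik, Gm27216, 5031425E22Rik, Gm5524, AI480526, 6720427I07Rik and 9030616G12Rik, lay between 2.08 and 4.87 TPM in either library.

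**Figure D2:**
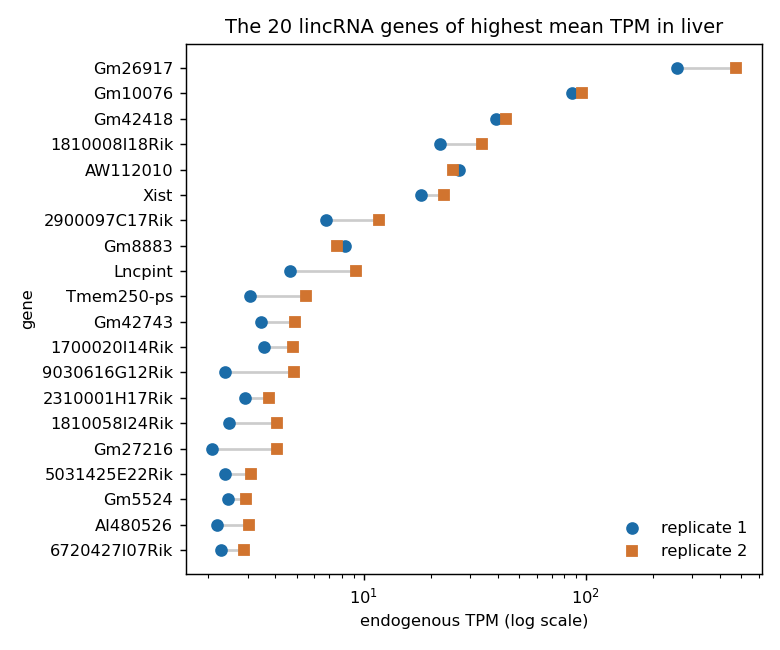
Endogenous TPM of the 20 lincRNA genes of highest mean level, on a log axis, with a circle for replicate 1 and a square for replicate 2. Gm26917 stands at 256 and 475 TPM, and only AW112010 and Gm8883 lie lower in replicate 2.

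Which transcript was made was mostly shared by the libraries. Of the 63 members with 100 counts or more in both, 37 have more than 1 transcript in the tables. The transcript with the largest share of the gene's abundance was the same in 35 of the 37, with a median share of 79.8% of the gene's abundance in replicate 1 and 76.2% in replicate 2.

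Named long noncoding RNAs were next described by lists of symbols, which were chosen with earlier results of these data known. Of 61 symbols of characterised RNAs, 27 matched a member by its M21 symbol, 14 were measurable and 6 reached 1 TPM in both libraries. The 6 include Gm26917 and Gm42418, with the limits given above. Oip5os1 is listed but not among the 27, because its M21 symbol is 1700020I14Rik. Norad and 2900097C17Rik, both listed, are the same gene. Hotair, Hottip and Halr1, whose nearest coding genes are Hox genes, and Mir9-3hg, nearest to Polg, were at 0 counts in both. Pvt1, beside the oncogene Myc, had 68 and 94 counts, or 0.151 and 0.522 TPM. Mir17hg, the host of an oncogenic microRNA cluster, had 183 and 202 counts, and Carmn, an RNA of smooth muscle and heart, 57 and 101. Gm26870, Mirg and Bvht had between 10 and 48 counts in either library. Epb41l4aos had 106 and 50 counts, or 1.58 and 1.11 TPM.

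Of 22 symbols associated with liver in general knowledge, 10 name members, 7 were measurable and 4 reached 1 TPM in both libraries. These were 1810008I18Rik, 9030616G12Rik with 323 and 434 counts (2.37 and 4.87 TPM), 9030622O22Rik with 537 and 557 counts (1.71 and 2.86 TPM) and Gm15611 with 69 and 91 counts (1.12 and 2.21 TPM, uncertain by its length). 2610037D02Rik had 498 and 379 counts, or 0.572 and 0.673 TPM, and Platr4 had 19 and 20. C730036E19Rik (lncLSTR), listed under both names, had 271 and 124 counts, or 0.964 and 0.683 TPM. The last 3 of the list, D630033O11Rik, Gm13855 and Gm10804, had between 7 and 33 counts in either library. The liver-associated members thus spanned from 28.1 ± 8.60 TPM (1810008I18Rik) to 0.0703 ± 0.0568 TPM (Gm10804; SD, n = 2).

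Measurable lincRNA genes lay close to coding genes. The nearest coding gene was within 5 kb of the gene body for 95 of 181 (52.5%), against 610 of 2588 (23.6%) of the other lincRNA genes. Measurable coding genes had another coding gene that close in 59.3%. The median gap was 3.74 kb for measurable lincRNA genes and 45.3 kb for the others, and gaps over 100 kb made up 12.2% and 31.9%. Between start sites, 33.1% of measurable members had a coding gene within 5 kb. No test is given for these shares, since neighbouring genes and annotated length are shared among members.

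Of the 6 positions, the largest difference in share from the other lincRNA genes was in head to head, where both genes start near each other and run apart. It held 33 measurable lincRNA genes (18.2%) within 5 kb, against 6.53% of the other lincRNA genes and 9.04% of measurable coding genes. Within 1 kb it held 28 (15.5%) and 5.10%. Another 28 (15.5%) overlapped a coding gene on the opposite strand, against 9.70% of the other lincRNA genes and 19.4% of measurable coding genes. Downstream on the same strand lay 13 (7.18% against 1.82%), and 11 (6.08% against 1.16%) overlapped on the same strand. Whether the counting used the strand of the reads is not given in the sources used here, so counts of overlapping and directly downstream genes can hold reads of the neighbour.

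**Figure D3:**
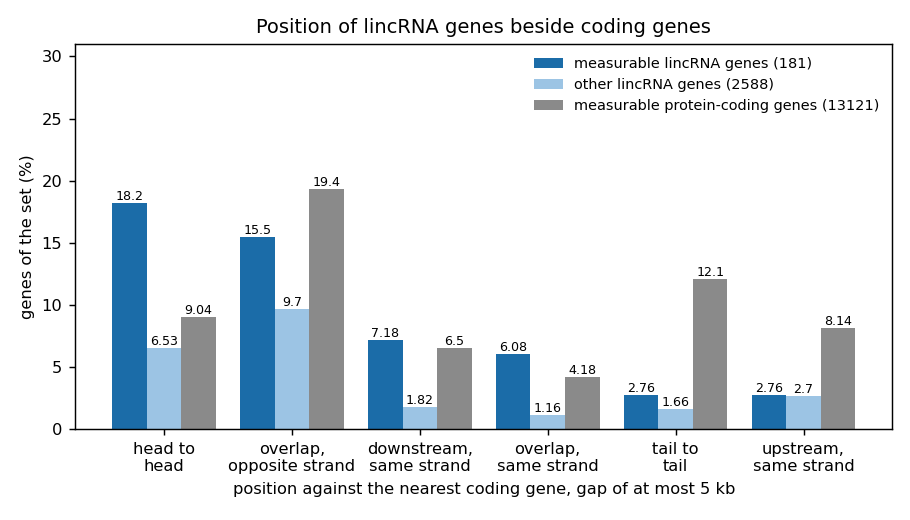
Position against the nearest coding gene at a gap of at most 5 kb, in percent of measurable lincRNA genes (181), other lincRNA genes (2588) and measurable protein-coding genes (13121). The head-to-head bars stand at 18.2%, 6.53% and 9.04%.

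For the 32 head-to-head members whose transcript with the most counts in replicate 1 is in M21, that transcript started within 5 kb of the coding gene's start in 31, and within 1 kb in 25, with a median of 183 nucleotides. The exception was Gm26608 beside Insig1, the endoplasmic reticulum protein that restrains sterol synthesis. Insig1 had 58.3 and 84.1 TPM, and the gene bodies lie 257 nucleotides apart. The transcript with 92.8% and 85.1% of the abundance of Gm26608 starts 15904 nucleotides from the start of Insig1.

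The 10 highest head-to-head members are given with their neighbours. 5031425E22Rik, with 1246 and 1037 counts (2.37 and 3.10 TPM), lies 171 nucleotides from Kmt2e, a chromatin regulator at 1.25 and 1.92 TPM. AI480526, with 389 and 390 counts (2.18 and 3.05 TPM), lies 526 nucleotides from Setd1b, a histone methyltransferase gene at 0.201 and 0.603 TPM. In both pairs the noncoding gene was above its coding neighbour in each library. 2010320M18Rik, with 236 and 253 counts (0.944 and 1.56 TPM), lies 101 nucleotides from Pik3r2, a regulatory subunit of phosphoinositide kinase at 0.833 and 1.63 TPM.

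In the other 7 of the 10 highest, the coding gene was the higher one. They are Gm7160 by Zcchc2, 2610037D02Rik by Arid2, a subunit of a chromatin remodelling complex, Gm16001 by Ogfod2, Gm17586 by Mafg, a small Maf transcription factor, 1110019D14Rik by 2610001J05Rik, 4930480K23Rik by Chmp7, a membrane-remodelling protein, and 2810414N06Rik by Edem3, a protein of glycoprotein quality control. Gm17586, whose shared window with Mafg is printed above, had 93 and 86 counts (0.422 and 0.603 TPM) against 4.58 and 6.67 TPM for Mafg. Over all 33 pairs the median was 0.216 TPM for the noncoding and 2.22 TPM for the coding gene.

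Most head-to-head promoters with a matched window were rich in CpG. A RefSeq window starting within 500 bases of the M21 gene start was found for 80 of 181 measurable lincRNA genes, 669 of 2588 others and 13698 coding genes. A window counted as CpG-rich had at least 50% G and C and at least 0.6 of the CpG dinucleotides that its base composition gives. That held for 36 of 80 measurable members (45.0%), 87 of 669 others (13%) and 51.7% of coding genes. Of the 17 head-to-head members with a window, 15 (88.2%) were CpG-rich, and the Gm17586 window above shows how dense such sequence is. A window of a head-to-head member can also hold the start of the coding gene, as that one does. The CpG content is therefore not that of the noncoding gene alone, and no share was computed for head-to-head coding genes. The windows cover less than 80% of each set, so these shares describe matched genes only.

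Measurable lincRNA genes more often had a measurable neighbour than the other lincRNA genes. The neighbour was measurable for 141 of 181 measurable lincRNA genes (77.9%) and for 53.7% of the others, beside 61.1% of all coding genes. Within 5 kb it was measurable for 85 of 95 (89.5%) and 443 of 610 (72.6%). Among measurable lincRNA genes, the ranks of the 2 levels had a weak relation. Spearman's rank correlation was -0.04 over 181 pairs with 172 coding genes and 0.0072 over the 95 pairs within 5 kb. All pairs share the same 2 libraries and their depth, so the correlation is a description. The member was above its neighbour in 57 pairs.

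**Figure D4:**
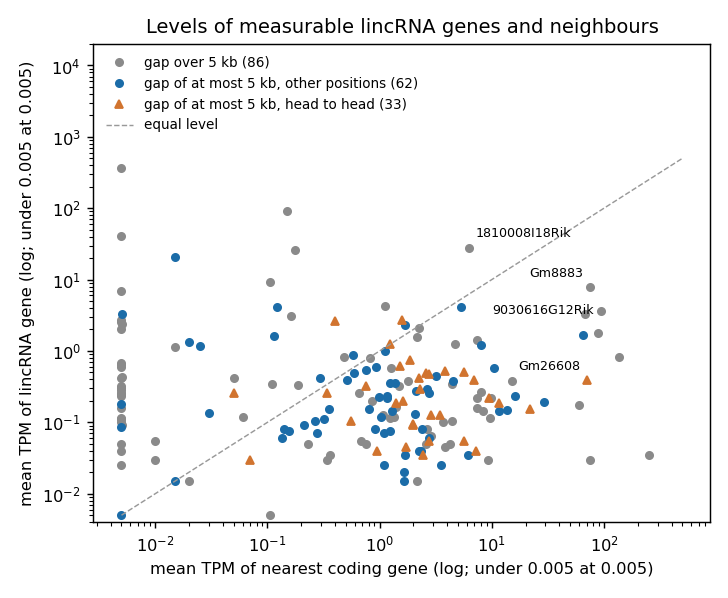
Mean endogenous TPM of the 181 measurable lincRNA genes against that of the nearest coding gene, on log axes, with orange triangles for head-to-head pairs within 5 kb (33), blue circles for other positions within 5 kb and grey circles for larger gaps. Points scatter on both sides of the dashed line of equal level, and 57 lie above it.

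Some measurable lincRNA genes lay by abundant coding genes, in a share near the background. Within 5 kb of a coding gene at 10 TPM or more in both libraries lay 6 of the 95 measurable members with a coding gene that close (6.32%), chosen after their values were seen, and 6.18% of all coding genes passed that level. Of the 6, the highest was Gm15611 at 1.67 ± 0.767 TPM (SD, n = 2). Gm15611 lies 1077 nucleotides upstream of Crot, the peroxisomal carnitine octanoyltransferase, at 57.1 and 72.1 TPM. Farther off, 9030616G12Rik lies 10.2 kb head to head from Mettl7b, a lipid-droplet protein gene at 69.9 and 118 TPM, and 2310001H17Rik lies 21.9 kb from Clec2d, at 58.1 and 78.3 TPM. Gm8883 lies 235 kb from Fn1, the fibronectin gene, at 57.7 and 92.4 TPM.

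Of 208 hepatocyte genes listed, 206 are in the files, and 12 lincRNA genes had one as nearest coding gene within 50 kb. Of the 12, 2 were measurable (16.7%), beside 6.54% of all lincRNA genes, which include those far from any coding gene. No share was computed for all lincRNA genes within 50 kb of a coding gene. Within 5 kb of one, 95 of 705 were measurable, so the 2 shares are not matched for distance. Both measurable genes were next to transcription factors of liver development. 9030622O22Rik starts 2673 nucleotides past the end of Foxa2 on the same strand, and Foxa2 had 1.22 and 2.14 TPM. The transcript with 94.5% and 89.4% of its abundance lies 66.7 kb from Foxa2. Gm20649, with 306 and 225 counts (0.381 and 0.442 TPM), overlaps Onecut1 on the same strand and shares 2179 nucleotides with its transcript, so its count cannot be separated from that of Onecut1, at 0.211 and 0.372 TPM.

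Between the libraries, the spread of lincRNA genes was close to that of all genes. Ratios are log2 of replicate 2 over replicate 1, in TMM-scaled CPM plus 0.05. Among the 67 members with a mean count of 100 or more the median was -0.03, beside -0.01 for all 11582 genes, and 59 (88.1%) lay within 1.5-fold, beside 87.9%. Over 2-fold apart were 2 members (2.99%), where 3.45% of all genes were. Both were higher in replicate 1, where 1.84% of all genes were, and 0 were higher in replicate 2, where 1.61% were. The edgeR biological coefficient of variation was 0.232 for 176 lincRNA genes, 0.237 for all genes and 0.231 for coding genes, sets not matched for count. At a mean count of 100 it was 0.163 for 67 lincRNA genes, and no value over all genes was computed there. The share of members apart is close to the background. Each ratio sets 1 library against 1, so no replicate check exists for it.

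The 2 were C730036E19Rik (lncLSTR), with a log2 ratio of -1.02, and Gm15408, with 164 and 75 counts and -1.0. Gm15408 lies 33.9 kb from Hmgb1. Both lay just past the limit, and the nearest members inside it were Gm8883 at -0.72, 4732419C18Rik at -0.71 with 211 and 120 counts, and A430046D13Rik at -0.65 with 152 and 90 counts. Among the 20 highest, AW112010 stood at -0.63. At the other end Lncpint stood at 0.60, Gm26514 at 0.58, Gm27216 at 0.53, 9030616G12Rik at 0.51 and C920006O11Rik at 0.46. With a pseudocount of 0.5 CPM, or with the spike-in total as the scale, 0 of the 67 members passed 2-fold. On the spike-in scale 5.61% of all genes did, and for that pseudocount no share over all genes was computed. The spike-in scale moved the median over all genes to 0.31, and relative to that median 2 members were over 2-fold higher in replicate 1. On deposited TPM the median over all genes was 0.54, and 12.7% of them passed 2-fold. The 2 members past it were 9030616G12Rik at 1.04 and Gm26514 at 1.19, both higher in replicate 2. Relative to the TPM median, 0 members were over 2-fold higher in replicate 2 and 1 was in replicate 1. No share over all genes was computed relative to either median. At 20 counts or more in a library, 7 of 176 members had a log2 ratio beyond 2 in size (3.98%), where 2.08% of all genes did. Of these, 6 were higher in replicate 1 (3.41%, beside 1.16% of all genes) and 1 in replicate 2 (0.568%, beside 0.921%).

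**Figure D5:**
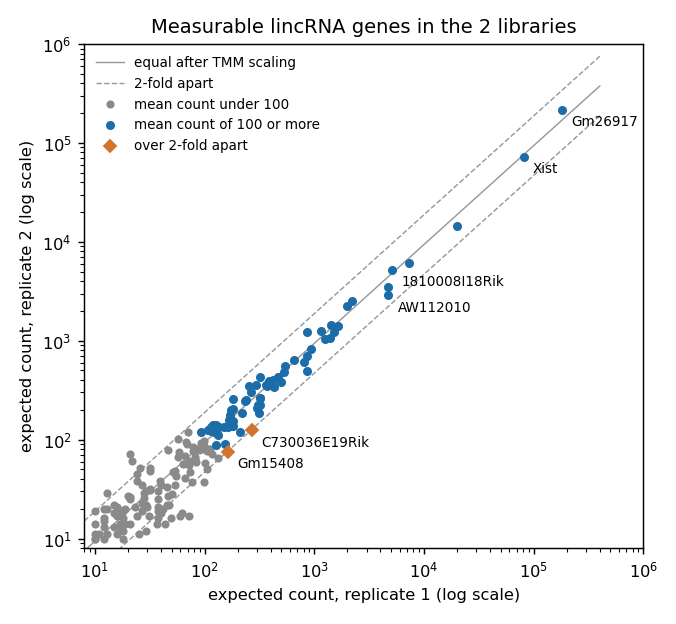
Expected counts of the 181 measurable lincRNA genes in replicate 1 (x) and replicate 2 (y), on log axes, with lines for equal counts after TMM scaling and for 2-fold differences. The diamonds mark C730036E19Rik and Gm15408, the only genes past the lower line among the 67 whose mean count reaches 100.

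Marker genes of other organs differed between the same libraries, and those of cell types in liver are given beside them. The 7 pancreatic acinar markers had 33285 counts in replicate 1 and 7165 in replicate 2, and 6 skeletal muscle markers 2302 and 6. The 5 adrenal cortex markers had 95 and 5947 counts. Of blood and liver cell types, 5 markers of the B lineage had 321 and 1052 counts, and 5 erythroid markers 18110 and 24010. The 6 Kupffer cell markers had 24391 and 17892, and 6 cholangiocyte markers 1971 and 1272. The 6 stellate cell markers had 32679 and 35182, and 6 sinusoidal endothelial markers 25193 and 24329. The 6 hepatocyte markers had 6111861 and 6369349. The part of any of these cell types in the ratios of lincRNA genes was not tested. In bulk tissue, fewer cells of a type and less RNA per cell cannot be told apart.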

How the data were processed

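Total RNA of 2 liver libraries in 1 group was analysed, and each library was used as 1 replicate. The authors quantified each library separately against mm10 and the GENCODE M4 models, per the notes deposited with the files. No source used here names the aligner or quantifier. The deposited gene tables hold expected counts, TPM, FPKM, effective length and the posterior SD of the count, and the deposited transcript tables hold the percent of a gene's abundance in each transcript (per the file headers). TPM divides by effective length, so a short RNA or a model that misses exons gets a distorted value.

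From these, members were matched by identifier without version to GENCODE M21 of the same assembly, which matched 42462 of 43346 identifiers. TPM was rescaled over mouse Ensembl gene identifiers, without spike-ins and rows with other identifiers. The limit for a measurable gene was 10 expected counts in both libraries, and ratios used genes with a mean count of 100. Neighbours are protein-coding genes with a row in the files, by the gap between gene bodies. Counts were rounded for edgeR 4.0.16 (TMM, common dispersion, intercept only) and DESeq2 1.42.0 (size factors) in R 4.3.3. Python 3.11.15, pandas 2.3.3 and blastn 2.17.0 did the rest, and the spread and the 2-fold count were tested on simulated data. Depth limits precision most at low counts.

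The members and the gene lists were chosen with earlier results of these data known. The genes named are the 20 of highest mean TPM, the 5 highest and 5 lowest ratios, the 10 highest head-to-head genes, measurable neighbours of hepatocyte genes and measurable genes of the characterised and liver lists. Limits on counts and TPM, scaling, pseudocount, gap and left-out libraries were varied. RefSeq names and promoter windows (GRCm38.p6) were matched by symbol.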

Additional observations from a re-analysis of the deposited data

How the results depend on the processing

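Measurable members numbered 63 at 100 counts and 395 at any count above 0. At a limit of 0.1 TPM 122 members passed, at 1 FPKM 67, and 104 when TPM was rescaled over coding and lincRNA genes. The share of endogenous signal was 0.0698% of TPM, 0.585% of counts without the misc_RNA class, 0.191% without Gm26917 and 0.164% without the 4 members named in the report. The median level was 0.879 TPM at 100 counts, 0 over all members and 0.710 in FPKM. With replicate 1 left out it was 0.191 TPM over the 213 genes with 10 counts or more in replicate 2. With replicate 2 left out it was 0.130 TPM over the 228 genes with 10 counts or more in replicate 1. The head-to-head shares and rank correlations with a library left out, below, use the same 2 sets. Members past 2-fold were 0 by spike-in scaling (2 relative to its all-gene median of 0.31), where 5.61% of all genes were. They were 0 with a pseudocount of 0.5 CPM, 0 at a mean count of 500 and 32 at a mean count of 10. No share over all genes was computed for that pseudocount or those count limits. These counts are therefore not a result about lincRNA genes. Leaving out a library leaves no ratio. The coefficient of variation was 0.233 with DESeq2 size factors and 0.163 at a mean count of 100. A coding gene lay within 1 kb in 38.7%, within 10 kb in 60.8%, by start sites in 33.1% and over all members in 25.5%. Head to head held 15.5% within 1 kb, 21.5% within 10 kb, 23.8% at 100 counts, 7.30% of all members, 19.6% without genes RefSeq classes otherwise, and 17.8% to 19.7% with each library left out. The rank correlation of member and neighbour levels was 0.0072 within 5 kb, -0.18 over 50 kb, -0.19 at 100 counts and -0.053 to -0.040 with each library left out. The causes of these shifts were not tested beyond the change of filter itself. Of 26 named ratios, 26 stayed on their side of 2-fold with DESeq2 size factors, 24 with a pseudocount of 0.5 CPM, 24 with spike-in scaling and 22 on TPM. The shares without RefSeq's other classes and the share without 4 members were chosen after seeing the data. No paired analysis was possible because the 2 libraries form a single group.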

Other observations

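Some members fell below the limit in 1 library only. They include the 7 members with a log2 ratio beyond 2 in size, of which 4 are named here, chosen after their values were seen. A530013C23Rik, which lies 758 nucleotides downstream of Cebpb, a liver transcription factor gene at 16.0 and 18.8 TPM, had 31 and 4 counts. 4632428C04Rik, 43.0 kb from the Notch target gene Hes1, had 42 and 7 counts, and Gm26912 had 23 and 0. Gm7967 was the one higher in replicate 2, with 0 and 21 counts. Of the characterised list, Lockd (2 and 17 counts), Lncenc1 (6 and 27) and Miat (1 and 14) were also higher in replicate 2. At these counts a ratio is imprecise, and no further check was possible with 2 libraries. In 2 measurable members a transcript now belongs to another gene in M21. They are Gm42743, as described, and Gm16630, whose transcript with 100% and 78.3% of its abundance is assigned to Gm44696.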
